A study of Mus musculus with 6 samples.

Results

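Glomerular endothelial genes were measured in mice whose podocytes lacked the von Hippel-Lindau gene Vhl. The set holds 38 genes, chosen by name as genes of endothelial cells outside the VEGF, Tie and adrenomedullin systems, and found on the array by the symbol that its annotation gives each probe set. Of the 38 genes, 36 had at least 1 probe set annotated to that gene alone, 65 probe sets in all, and 35 passed the filter on dim probe sets, out of 11168 genes tested. Ly6a and Ly6c1 had no probe set annotated to them alone and have no value here. Vwf, the gene of von Willebrand factor, stayed below the filter, with signals of 39.8, 5.93 and 6.70 in wild-type and 35.8, 41.1 and 50.7 in transgenic arrays.

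The arrays were Affymetrix expression arrays of glomeruli, the capillary tufts that filter blood in the kidney, isolated with magnetic beads from 6 female mice aged 6 weeks. The 3 transgenic mice carried Pod-Cre, a Cre recombinase under the podocin promoter, and a floxed Vhl locus, so the deletion was directed at podocytes and not at the endothelium. The 3 controls were littermates labelled wildtype, from litters of parents that were homozygous for the floxed locus. Offspring of such parents would carry floxed alleles, but the labels call the controls wildtype and do not state their alleles. Transgenic mice had been chosen for urinary albumin no higher than the mean of wild-type littermates, with urine taken at 4 weeks, and each mouse gave 1 array. Every array had a trimmed mean signal of 500, and median signals ran from 94.6 to 107.5. Precision is limited by having 3 arrays in each group.

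Glomerular endothelial cells line the capillaries on the blood side of the basement membrane that podocytes cover from the other side. They are flat and perforated by open fenestrae, and they depend on VEGF made by podocytes. Their identity is held by transcription factors of the ETS and SoxF families, while Klf2 and Klf4 respond to the shear stress of flowing blood. Podocytes without Vhl cannot mark hypoxia-inducible factors (HIF) for degradation, and the comparison asked here is how the endothelial genes beside such podocytes were expressed.

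Expression of the endothelial genes did not pass the test in any member. Of 35 tested members 0 rose and 0 fell (limma, Benjamini-Hochberg adjusted p under 0.05). Over all genes tested 15, or 0.134%, passed, with 0.125% that rose and 0.00895% that fell. At an unadjusted p under 0.05 there was 1 member, Cd34, or 2.86%, against 4.92% of all genes. The median difference was 0.04 on the log2 scale (0.004 over all genes), and 20 members had a positive and 15 a negative difference. The differences ran from -0.42 for S1pr1 to 0.55 for Esm1. All differences are transgenic minus wild-type log2(signal + 28), given with a 95% interval and n = 3 arrays per group. The 95% interval excluded a change of 1.5-fold in either direction in 23 members (65.7%, against 59.7% of all genes), and a change of 2-fold in 31 (88.6%, against 87.9%). In a bulk sample, fewer endothelial cells and less RNA per cell cannot be told apart.

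The arrays told the groups apart at genes outside the set. Egln3, a prolyl hydroxylase gene induced by HIF, had signals of 144, 171 and 149 in wild-type and 5098, 4792 and 3678 in transgenic arrays, a difference of 4.63 (limma adjusted p = 9.878e-05). Vhl was at 809, 665 and 707 in wild-type and 611, 619 and 606 in transgenic arrays, a difference of -0.23 (-0.51 to 0.04) that did not pass (limma adjusted p = 0.943). Where the Vhl probes lie relative to the excised exons could not be checked here. The defining endothelial markers Pecam1, Cdh5, Emcn, Ehd3, Plat, Cd34 and Esam were all above the filter. Markers of podocytes (17 of 20 tested), mesangial and smooth muscle cells (14 of 17) and tubules (20 of 22) were measured as well, while of 6 lymphatic markers only Flt4, which is not specific to lymphatic cells, was tested.

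**Figure D1:**
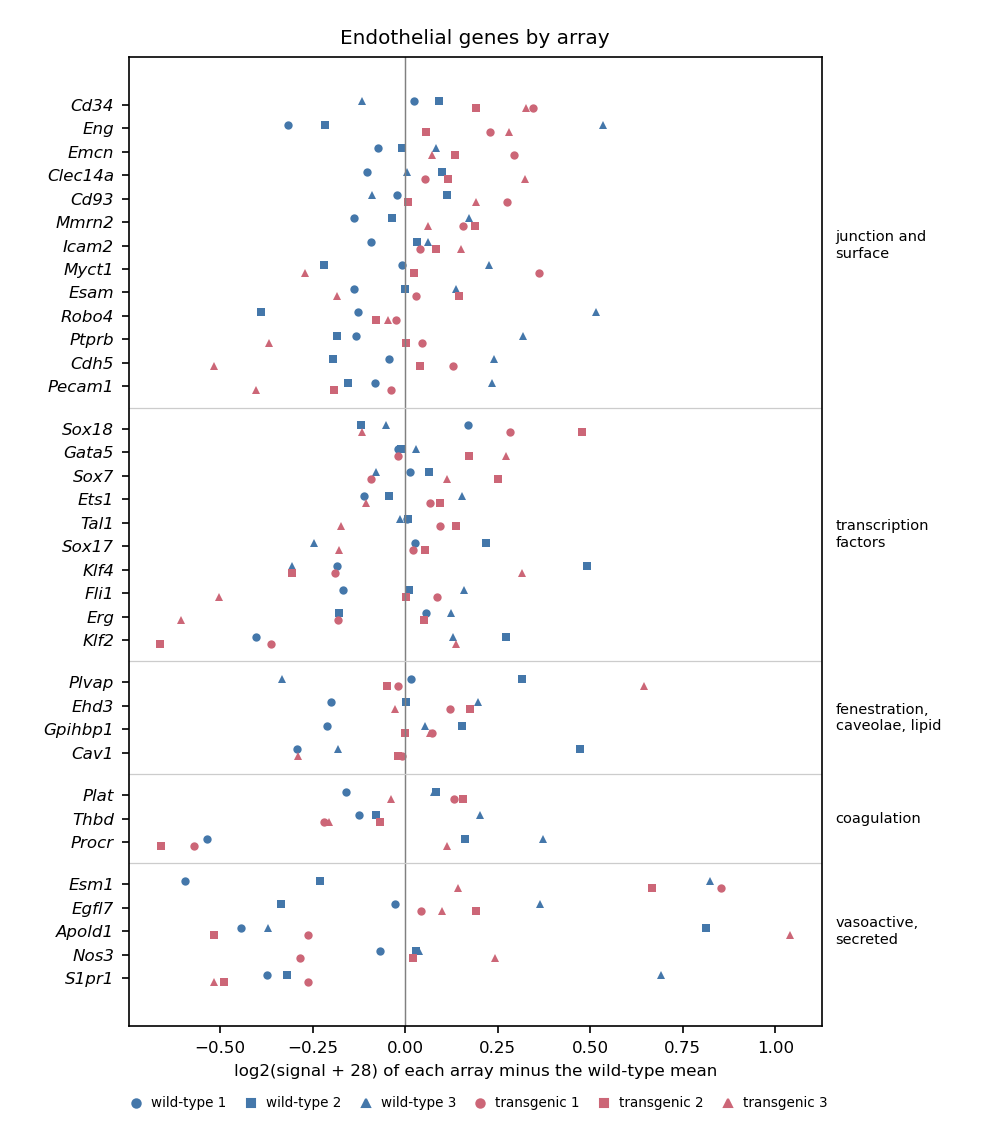
Level of each of the 35 tested endothelial genes in each array, as log2(signal + 28) minus the mean of the 3 wild-type arrays, with genes grouped by role. Blue marks are wild-type and red marks transgenic arrays, and circle, square and triangle are replicates 1, 2 and 3. In Cd34 the groups do not overlap, and in the other 34 genes they do, by the probe set that stood for each gene.

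Genes of cell junctions and the cell surface were the largest role group, with 13 of 15 genes tested. The median difference was 0.09, 8 were positive and 5 negative, and 0 passed over all genes. Cd34 encodes a sialomucin of the luminal endothelial surface. Its signals were 5813, 6089 and 5262 in wild-type replicates 1 to 3 and 7266, 6522 and 7165 in transgenic replicates 1 to 3. Every transgenic array lay above every wild-type array. By the probe set that stood for each gene, this held for 1 of 35 members and for 5.05% of all genes. In 0 members did every transgenic array lie below (5.61% of all genes), so the groups were apart in 1 member, or 2.86%, against 10.7% of all genes. Wild-type glomeruli had a mean signal of 5721 ± 421 (SD, n = 3) and transgenic glomeruli one of 6984 ± 403 (SD, n = 3), a difference of 0.29 (SE 0.10, interval 0.05 to 0.53), or 1.22-fold. It did not pass over all genes (limma adjusted p = 0.933), and stayed between 0.21 and 0.34 when arrays were left out.

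Emcn, the gene of endomucin, another sialomucin of capillary and venous endothelium, followed with signals of 20779.7, 21719 and 23173 in wild-type and 26847, 24031 and 23012 in transgenic arrays. The groups overlapped by 1 array, since transgenic replicate 3 lay below wild-type replicate 3. The difference was 0.17 (-0.07 to 0.41). Clec14a and Cd93 encode related C-type lectin domain proteins that bind the matrix protein encoded by Mmrn2, and their differences were 0.17, 0.16 and 0.14. Clec14a was at 1119.9, 1294 and 1209 in wild-type and 1254, 1309.7 and 1517 in transgenic arrays, which overlapped, and its second kept probe set was at -0.18, so its direction depends on the probe set. Cd93 was at 1099, 1209 and 1048 in wild-type and 1356, 1124 and 1279 in transgenic arrays, and of its 3 kept probe sets one was at -0.01. All 4 probe sets of Mmrn2 were positive, between 0.06 and 0.41, and in the one at 0.41 the transgenic signals of 1846 to 2289 lay above the wild-type signals of 1174 to 1756. Icam2, an adhesion molecule for leukocytes, was at 0.09 (-0.13 to 0.31), and its spread within groups was lower than that of most genes (percentile 4.6 of all genes tested).

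The negative differences in this role group were those of Pecam1, Cdh5, Ptprb, Esam and Robo4, none of which passed, and with array weights those of Cdh5, Ptprb, Esam and Robo4 were positive. Pecam1, the platelet endothelial adhesion molecule of cell borders, had signals of 4998, 4748 and 6221 in wild-type and 5141, 4620.5 and 3993 in transgenic arrays. Wild-type replicate 3 was the highest and transgenic replicate 3 the lowest of the 6. The difference was -0.21 (-0.55 to 0.13), and it was 0.001 without these 2 arrays. Cdh5, the gene of VE-cadherin, was at 2445, 2196 and 2979 in wild-type and 2760.04, 2591 and 1752 in transgenic arrays. Here too the extremes were the third replicates, and the difference of -0.12 (-0.59 to 0.35) turned to 0.20 without them. The dimmer Cdh5 probe set was at -0.04. Ptprb, the receptor phosphatase VE-PTP that binds VE-cadherin, had a difference of -0.11 (-0.52 to 0.31) and of -0.09 and 0.09 in its other probe sets, with signals of 9148, 8834 and 12534 in wild-type and 10360.3, 10062 and 7782 in transgenic arrays. Its highest and lowest arrays were again the third replicates. Esam, a junctional adhesion molecule, was at -0.003 (-0.30 to 0.29).

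The remaining surface genes varied between arrays more than between groups. Eng encodes endoglin, a co-receptor of the TGF-beta family. Its signals were 4394, 4709 and 7941 in wild-type and 6428, 5699.7 and 6663 in transgenic arrays, so that wild-type replicate 3 stood above all others. The difference was 0.19 (-0.34 to 0.72) and 0.46 (0.20 to 0.71) without wild-type replicate 3 (limma adjusted p = 0.518). Without wild-type replicate 1 it was 0.03. The second Eng probe set was at 0.30. Robo4, a roundabout receptor of the endothelium, had a signal of 1172 in wild-type replicate 3 against 613 to 797 in the other 5 arrays, and its difference was -0.05 (-0.58 to 0.48). Myct1, an endothelial gene named after a Myc target, was at 0.04, with all 4 probe sets between 0.04 and 0.19.

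**Figure D2:**
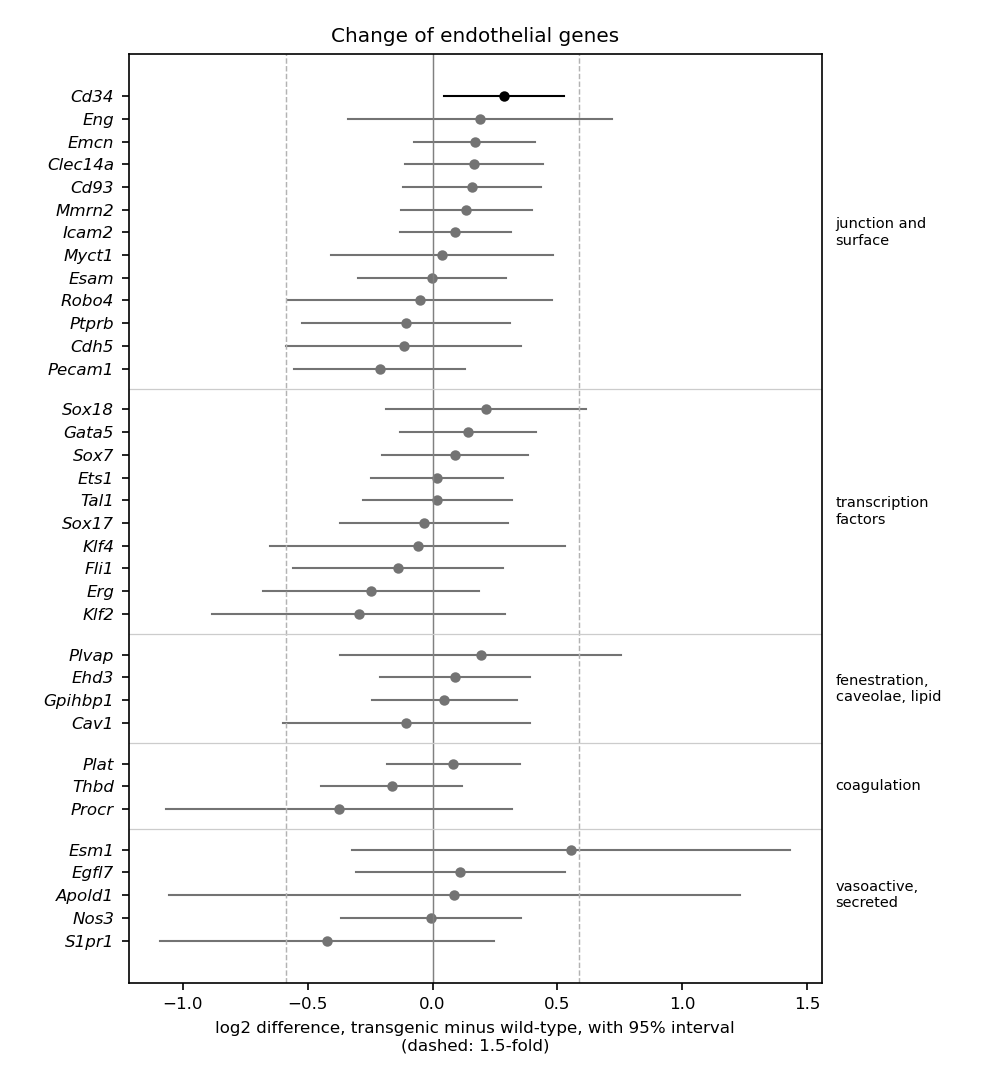
Difference between transgenic and wild-type glomeruli for the 35 tested endothelial genes, on the log2 scale, with the 95% interval from limma (n = 3 arrays per group). Dashed lines mark a 1.5-fold change. The interval of Cd34, in black, is the one that leaves out 0, and the intervals of Esm1 and Apold1 are the widest.

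Of the 10 transcription factor genes, 5 were positive and 5 negative, with a median of -0.01 and 0 past the test over all genes (0 also at an unadjusted p under 0.05). Among the ETS factors, Erg was at 1813, 1536 and 1901 in wild-type and 1532, 1805 and 1135 in transgenic arrays, a difference of -0.25 (-0.68 to 0.19). The low value was that of transgenic replicate 3, and the difference was -0.07 without it. Fli1 was at 2285, 2589 and 2877 in wild-type and 2733, 2578 and 1808 in transgenic arrays, a difference of -0.14 (-0.56 to 0.28), and its other probe set was at 0.05. As in Erg, transgenic replicate 3 was the lowest array. Ets1 was at 0.02 (-0.25 to 0.28), and its other 3 probe sets lay between 0.09 and 0.21. In the one at 0.17 the transgenic signals of 2813 to 2963 lay above the wild-type signals of 2385 to 2717. Tal1, a helix-loop-helix factor of blood and vessel precursors, was at 0.02 (-0.28 to 0.32).

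None of the 3 SoxF genes passed the test. Sox18 had signals of 3890.5, 3176 and 3330.2 in wild-type and 4206, 4817 and 3184 in transgenic arrays, which overlapped, with a difference of 0.21 (-0.18 to 0.61). Sox7 was at 0.09 (-0.20 to 0.38) and Sox17 at -0.03 (-0.37 to 0.30). Gata5, a zinc finger factor expressed by glomerular endothelium, was at 810.4, 814 and 839 in wild-type and 809, 929.7 and 997 in transgenic arrays. Its lowest transgenic array lay below all wild-type arrays, and the difference was 0.14 (-0.13 to 0.41). The second Gata5 probe set was at 0.24, with transgenic signals from 717 to 879 above the wild-type signals from 622 to 685. Every transgenic array lay above in 5.05% of all genes, by the probe set that stood for each. The share over all probe sets was not counted, here or for the Mmrn2 and Ets1 probe sets given above.

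Klf2 and Klf4, zinc finger factors induced by flow, separated arrays within each group. Klf2 was at 5588, 8937 and 8081 in wild-type and 5739, 4662 and 8130.4 in transgenic arrays, a difference of -0.30 (-0.88 to 0.29). Klf4 was at 4934, 7901 and 4531 in wild-type and 4922, 4533 and 6988 in transgenic arrays, a difference of -0.06 (-0.65 to 0.53), with its second probe set at -0.19. Both were high in wild-type replicate 2 and transgenic replicate 3, and Klf2 also in wild-type replicate 3. Apold1, an early response gene of endothelial cells, had the same 2 high arrays, with 610.05, 1497 and 644 in wild-type and 695.7, 579 and 1758 in transgenic arrays, and a difference of 0.09 (-1.05 to 1.23).

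The same 2 arrays were the highest for immediate early genes, which are switched on within minutes of stimulation or handling. Cyr61, an older symbol of the tested gene Ccn1, was among the 16 symbols listed, of which 14 were tested. Those 14 averaged 12.94 (log2) in wild-type replicate 2 and 13.11 in transgenic replicate 3, against 11.19 to 11.73 in the other 4 arrays. Fos, for example, was at 25604 and 26579.6 in these arrays and between 9603 and 13256 in the others. The mean of Klf2, Klf4 and Apold1 was 12.22 and 12.19 in these arrays, against 11.20 to 11.51 in the others. Without these 2 arrays the differences were -0.38 (-0.95 to 0.20) for Klf2, -0.002 for Klf4 and 0.02 for Apold1. The part of the immediate early response in these values was not tested.

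**Figure D3:**
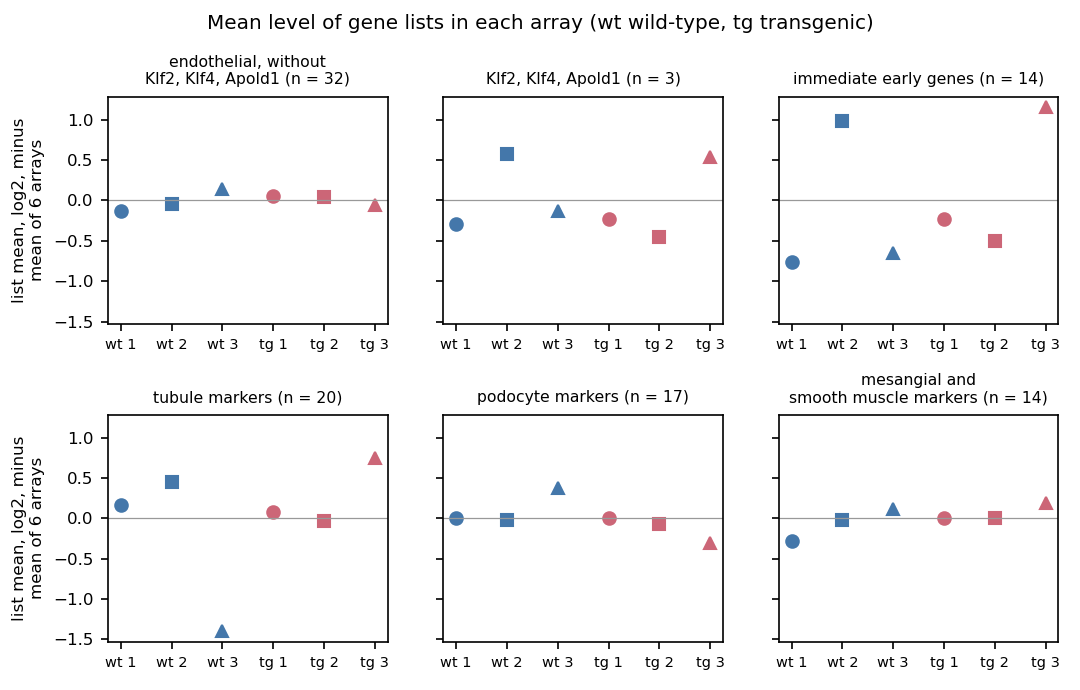
Mean log2(signal + 28) of each gene list in each array, minus the mean over the 6 arrays, for 32 endothelial genes, for Klf2, Klf4 and Apold1, and for 4 lists of other genes (n is the number of genes tested). Wild-type replicate 2 and transgenic replicate 3 are high in the panels of these 3 genes and of immediate early genes, tubule markers are low in wild-type replicate 3, and the 32 endothelial genes span 11.35 to 11.62.

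Because these 3 genes shared their high arrays, the 250 bases before their start sites are shown, as RefSeq gives them for GRCm38.p6. Capitals mark every match, on either strand, to TGACG (the core of the cyclic AMP response element), ACGTG or GCGTG (the core of the HIF-binding element), or AGGAAG or CCGGAA (cores bound by ETS factors). The CArG box, bound by serum response factor, was searched for as well.
Klf2, chr8:72318812-72319061, plus strand: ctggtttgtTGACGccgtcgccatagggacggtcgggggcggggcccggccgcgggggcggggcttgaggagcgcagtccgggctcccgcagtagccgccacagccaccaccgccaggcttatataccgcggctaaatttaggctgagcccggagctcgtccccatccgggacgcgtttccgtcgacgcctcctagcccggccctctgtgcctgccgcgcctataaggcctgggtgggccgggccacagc
Klf4, chr4:55532476-55532725, minus strand: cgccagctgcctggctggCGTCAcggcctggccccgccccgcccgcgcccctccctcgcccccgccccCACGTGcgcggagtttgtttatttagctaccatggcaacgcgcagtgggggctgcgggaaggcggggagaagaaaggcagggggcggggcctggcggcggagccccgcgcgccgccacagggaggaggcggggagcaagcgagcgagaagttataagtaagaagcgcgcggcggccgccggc
Apold1, chr6:134981751-134982000, plus strand: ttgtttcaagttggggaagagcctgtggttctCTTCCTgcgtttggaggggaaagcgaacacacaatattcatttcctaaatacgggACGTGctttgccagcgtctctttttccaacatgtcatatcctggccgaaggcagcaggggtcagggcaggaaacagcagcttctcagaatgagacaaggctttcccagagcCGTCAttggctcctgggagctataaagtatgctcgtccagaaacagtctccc

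Each of the 3 windows holds TGACG once, at -241 to -237 in Klf2, -232 to -228 in Klf4 and -52 to -48 in Apold1, where -1 is the last base before the start site. The overlapping pair of ACGTG matches in Klf4 is 1 palindrome read on both strands. The table has entries for 18 of the endothelial genes, with 25 windows in all. TGACG occurs in 8 of the 25 windows (32%) and in 17.8% of all 32851 windows of that length. ACGTG occurs in 5 of the 25 (20%, against 16.6%), GCGTG in 3 (12%, against 28.2%), AGGAAG in 9 (36%, against 29.5%), CCGGAA in 0 (against 12%) and the CArG box in 0 (against 1.47%). These are matches of letters in a short window and show no binding.

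Genes of the capillary wall and its transport had no member past the test (0 of 4, and 0 at an unadjusted p under 0.05), with a median of 0.07. Ehd3, an endocytosis protein enriched in glomerular endothelium, was at 16885, 19431 and 22249 in wild-type and 21116, 21918 and 19048 in transgenic arrays, which overlapped. The difference was 0.09 (-0.21 to 0.39), and its second probe set was at 0.06. Plvap forms the diaphragms of fenestrae, which mature glomerular endothelium mostly lacks. Its signals were 1488, 1837 and 1162 in wild-type and 1452, 1422 and 2314 in transgenic arrays, and the difference was 0.19 (-0.37 to 0.75). Plvap was lowest in wild-type replicate 3 and highest in transgenic replicate 3. Mean tubule marker level was also lowest (10.92) and highest (13.07) in these arrays. With that level as a covariate the Plvap difference was negative, and the part of tubule carry-over was not tested. Cav1, the gene of caveolin, was at 4559, 7767 and 4929 in wild-type and 5559, 5516 and 4572 in transgenic arrays. Its difference of -0.11 (-0.60 to 0.39) became 0.13 without wild-type replicate 2, the highest array. Gpihbp1, which carries lipoprotein lipase to the capillary lumen, was at 1121, 1452 and 1353 in wild-type and 1369.9, 1301 and 1365 in transgenic arrays, a difference of 0.05 (-0.24 to 0.34).

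Of the 4 genes of coagulation and fibrinolysis, 3 were tested, with a median of -0.16 and 0 past the test (0 at an unadjusted p under 0.05). Thbd, the gene of thrombomodulin, was at 3273, 3378 and 4108 in wild-type and 3062, 3403 and 3093 in transgenic arrays, a difference of -0.16 (-0.45 to 0.12). Procr, the gene of the protein C receptor that acts with it, was at 465, 771 and 896 in wild-type and 452, 424 and 744 in transgenic arrays. Each group held both low and high arrays, and the difference was -0.37 (-1.07 to 0.32). Plat, the gene of tissue plasminogen activator, was at 27521, 32584 and 32446 in wild-type and 33702, 34288 and 29953 in transgenic arrays, a difference of 0.08 (-0.18 to 0.35). Its dimmer probe set was at -0.06.

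The 5 vasoactive and secreted genes held the highest and the lowest difference of the set, with a median of 0.09 and 0 past the test (0 at an unadjusted p under 0.05). Esm1 encodes endocan, a secreted proteoglycan of endothelial tip cells that VEGF induces. Its signals were 278, 366 and 789.9 in wild-type and 807, 707 and 482 in transgenic arrays, so wild-type replicate 3 lay among the transgenic arrays. Wild-type glomeruli averaged 478 ± 273 (SD, n = 3) and transgenic glomeruli 665 ± 166 (SD, n = 3), a difference of 0.55 (-0.32 to 1.43), or 1.47-fold, with a limma adjusted p of 0.943. Without wild-type replicate 3 the difference was 0.97 (0.41 to 1.52, limma adjusted p = 0.547), and without wild-type replicate 1 it was 0.26. With the tubule marker level of each array as a covariate it was 0.92 (0.51 to 1.33, limma adjusted p = 0.148).

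Esm1 passed in 1 of 23 alternative settings, a fit without the third replicate of both groups, where the difference was 1.17 (0.78 to 1.56, limma adjusted p = 0.0488) and 40 genes (0.358%) passed in all. Those arrays had the lowest and the highest tubule marker level, and they were also the highest wild-type and the lowest transgenic array of Esm1 itself. By the probe set that stood for each gene, Cd34 was the one member whose groups did not overlap. The 250 bases before the start site of Esm1, from RefSeq for GRCm38.p6, are shown beside those of Cd34, with capitals as above.
Esm1, chr13:113209409-113209658, plus strand: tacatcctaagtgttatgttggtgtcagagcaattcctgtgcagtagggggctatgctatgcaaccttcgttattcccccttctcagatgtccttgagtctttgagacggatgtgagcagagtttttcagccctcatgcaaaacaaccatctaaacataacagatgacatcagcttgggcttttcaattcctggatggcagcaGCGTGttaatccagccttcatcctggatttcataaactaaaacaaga
Cd34, chr1:194938571-194938820, plus strand: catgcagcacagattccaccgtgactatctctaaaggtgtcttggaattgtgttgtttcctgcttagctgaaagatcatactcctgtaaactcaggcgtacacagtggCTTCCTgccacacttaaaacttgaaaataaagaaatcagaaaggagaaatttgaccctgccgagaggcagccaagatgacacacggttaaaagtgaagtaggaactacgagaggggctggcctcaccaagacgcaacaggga
Esm1 holds 1 GCGTG, at -47 to -43, and Cd34 holds 1 AGGAAG, on the opposite strand, at -142 to -137.

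S1pr1, the receptor of sphingosine 1-phosphate that tightens endothelial junctions, had the most negative difference. Its signals were 881, 914 and 1870.4 in wild-type and 953, 809 and 795 in transgenic arrays. Wild-type replicate 3 alone stood high, and the difference of -0.42 (-1.09 to 0.24) was -0.08 (-0.37 to 0.22) without it. Nos3, the endothelial nitric oxide synthase gene, was at 687, 737 and 741 in wild-type and 587, 733 and 858 in transgenic arrays, with a difference of -0.01 (-0.37 to 0.35) and transgenic arrays on both sides of the wild-type arrays. Egfl7, a secreted protein of the vessel wall that hosts a microRNA gene, was at 3464, 2793 and 4552 in wild-type and 3639, 4036 and 3789 in transgenic arrays. The transgenic arrays lay within the wild-type range, the difference was 0.11 (-0.31 to 0.53), and of its 4 probe sets 3 were positive and 1 negative, between -0.04 and 0.18.

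**Figure D4:**
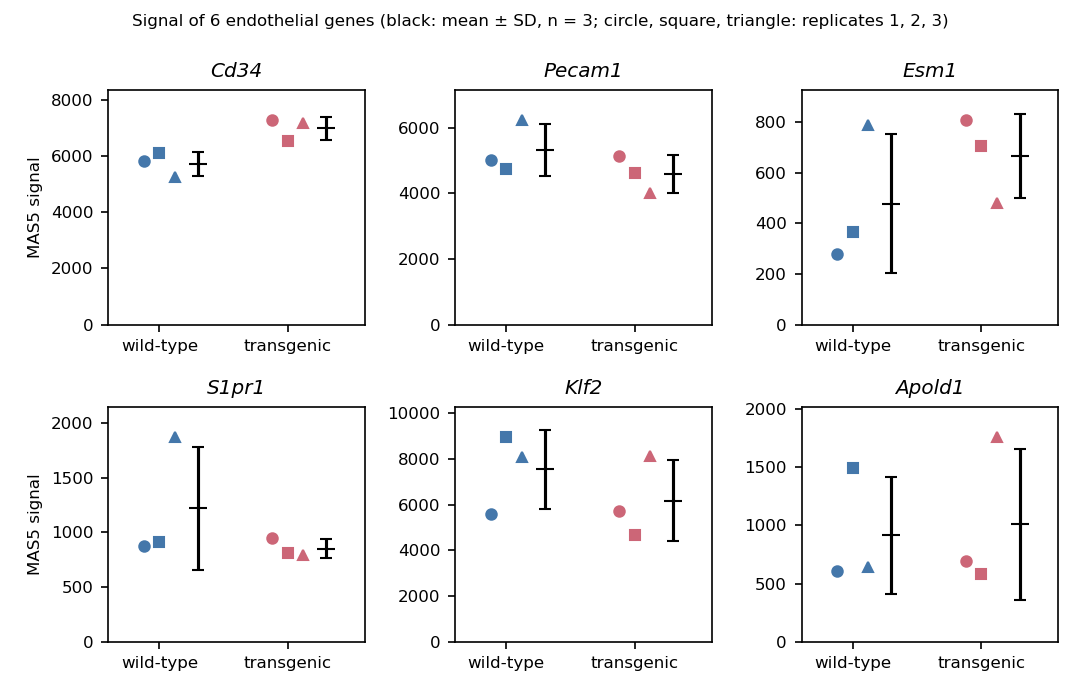
MAS5 signal of 6 endothelial genes in each array, on linear axes that start at 0, with the mean and SD of each group in black (n = 3). Cd34 is the one of the 6 without overlap, wild-type replicate 3 is high in Esm1 and S1pr1, and wild-type replicate 2 and transgenic replicate 3 are high in Apold1.

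Variation of the set followed arrays. Within groups the median SD of a member was 0.19 on the log2 scale, against 0.20 over all genes tested, and it ran from 0.07 for Icam2 to 0.77 for Apold1. Wild-type replicate 3 was the highest of the 6 arrays for 13 of 35 members, among them Pecam1, Cdh5, Ptprb, Eng, Robo4 and S1pr1, and wild-type replicate 1 was the lowest for 11. Transgenic replicate 3 was the lowest for 9, among them Pecam1, Cdh5, Ptprb, Erg and Fli1. Mean log2 levels of the 35 members were 11.35, 11.51 and 11.61 in wild-type and 11.52, 11.50 and 11.49 in transgenic arrays, a difference of 0.02 in means with a wild-type SD of 0.13. All transgenic arrays lay within the wild-type range.

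Markers of other cells varied with the same arrays. The mean of 20 tubule markers was 10.92 in wild-type replicate 3 and 13.07 in transgenic replicate 3, against 12.29 to 12.78 in the other 4 arrays, and their summed signal was 55950 (wild-type replicate 3) to 201075 in wild-type and 154154 to 244889 in transgenic arrays. The mean of 17 podocyte markers was 13.04 in wild-type replicate 3 and 12.37 in transgenic replicate 3, against 12.61 to 12.68 in the other arrays. The median difference of the endothelial set was 0.07 when wild-type replicate 3 was left out. It was 0.06 with the tubule level as a covariate, where 0 members passed and 6 (17.1%) had an unadjusted p under 0.05, against 6.94% of all genes in that fit (limma). Without the third replicate of both groups 1 member passed, the Esm1 call given above (0.358% of all genes passed), and the median was 0.096. In that fit 7 members (20%) had an unadjusted p under 0.05, against 11.8% of all genes. With array weights these were 5 members (14.3%), against 8.54%, and in the reported fit 1 (2.86%), against 4.92%. The part of tubule carry-over in these values was not tested.

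Leukocyte markers were measured as well. Of 16 listed, 10 were tested, and their mean ran from 8.78 to 9.31 over wild-type arrays and from 9.44 to 9.90 over transgenic arrays, without overlap. Their summed signal ran from 5370 to 7842 in wild-type and from 9259 to 13590 in transgenic arrays. Of the 10 markers 0 passed over all genes and 6 (60%) had an unadjusted p under 0.05, against 4.92% of all genes (limma). These 6 were Cd74, H2-Aa, H2-Ab1, H2-Eb1, Ptprc and Csf1r. In these 6 every transgenic array lay above every wild-type array, which held for 5.05% of all genes. In Adgre1, at -0.13, and in Cd68, Lyz2 and Tyrobp the groups overlapped, and C1qa, C1qb, Cd3e, Cd3g, Cd79a and Itgam stayed below the filter or had no probe set of their own. Their part in the values of Cd34, Icam2 and other genes that blood cells can express was not tested.

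Endothelial genes outside the set had no member past the test either. Of 71 further endothelial genes listed, 70 were tested, 36 had a positive and 34 a negative difference, and the median was 0.004. Over all genes 0 passed (limma), and 5 had an unadjusted p under 0.05, or 7.14%, against 4.92% of all genes. These were Apln at 0.92 (0.56 to 1.28), Aplnr at 0.98 (0.52 to 1.44), Fabp4 at 0.41, Foxc2 at -0.58 and Cldn5 at -0.48. With the mean of its kept probe sets Fabp4 was at 0.194 (-0.467 to 0.855). Without the third replicate of both groups Foxc2 was at -0.27 and Cldn5 at -0.22. Apln, the gene of the peptide apelin, was at 209.8, 217 and 248 in wild-type and 521, 391 and 446 in transgenic arrays without overlap (limma adjusted p = 0.204), and it passed when arrays were weighted by their variability (1.03, limma adjusted p = 0.0354). Aplnr, the apelin receptor gene, was at 1061, 777 and 704 in wild-type and 1995, 1389 and 1684 in transgenic arrays, without overlap (limma adjusted p = 0.342). Of the 70 genes, every transgenic array lay above in 3 (5.05% of all genes) and below in 4 (5.61% of all genes). Foxc2 is a podocyte marker as well, and Cldn5, a tight junction gene, had 7343 in wild-type replicate 3 against 3544 to 4755 in the other arrays. The VEGF receptor genes Kdr and Flt1 were at 0.28 (-0.02 to 0.59) and 0.04, the angiopoietin receptor gene Tek at 0.04 and Nostrin, a partner of nitric oxide synthase, at 0.08.

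Set beside the other cell types of the glomerulus, the endothelial median of 0.04 lay between those of podocyte markers (-0.30 over 17 genes, 3 positive and 14 negative) and of mesangial and smooth muscle markers (0.15 over 14 genes, 12 positive and 2 negative). None of these markers passed over all genes (limma). At an unadjusted p under 0.05 there were 4 podocyte markers (23.5%) and 2 mesangial markers (14.3%), against 4.92% of all genes. Of the 4 podocyte markers, Cdkn1c was positive, at 0.48, and Lmx1b, Plce1 and Foxc2 were negative. The podocyte median was -0.122 with the tubule level as a covariate and -0.027 without the third replicate of both groups. In those fits the endothelial medians were 0.06 and 0.096, and the mesangial and smooth muscle medians 0.168 and 0.172. The differences between the lists were not tested.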

How the data were processed

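Each of the 6 samples, 3 per group by the labels, is 1 array. The authors deposited intensities, 1 MAS5 signal per probe set on a linear scale, per the submitters' processing notes, which give no version; the values show that each array was scaled to a 2% trimmed mean of 500. Scaling fixes the array mean, so a shift of most genes would not be seen. Of 45101 probe sets, 64 are controls, 34945 have 1 gene symbol in the platform annotation, 932 several and 9160 none; 34741 were matched by Entrez number to a RefSeq gene table. Before the logarithm 28, the 25th percentile of all signals, was added to each value (log2(signal + 28)), which understates changes of dim genes. Probe sets in the upper 50% by mean signal (100.1 or more) were kept, and the one of highest mean signal stood for a gene. The groups were compared in limma 3.58.1 (R 4.3.3; lmFit, eBayes with intensity trend, 7.07 degrees of freedom) with Benjamini-Hochberg adjustment over 11168 genes at 0.05, without covariates. The fit was also run on simulated data with independent errors, which cannot show how it behaves where whole arrays deviate.

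Values in each array are given for, in each of 5 role groups, the 3 members of lowest p (all in groups of 5 or fewer), for Pecam1, Cdh5, Emcn and Ehd3, for members with a difference of 0.5 or more or with probe sets of opposite sign, for Klf2, Klf4 and Apold1, and for the member below the filter; those of Eng and Robo4 were added after their values were seen. From the other endothelial list the 5 genes of lowest p are named, with Kdr, Flt1, Tek and Nostrin. Members and lists were chosen with earlier results of these data known. Alternatives changed scaling, pseudocount, filter, probe set, variance model, array weights, replicate block, tubule covariate and threshold, and left out arrays. The filter by mean log2 value and the fits without 2 arrays were chosen after seeing the data. Upstream windows came from RefSeq (GRCm38.p6); no genome coordinates of probes were used.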

Additional observations from a re-analysis of the deposited data

How the results depend on the processing

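Of 35 endothelial genes, 0 passed the threshold in the reported fit, and 1, Esm1, passed in 1 of 23 alternatives, the fit without the third replicate of both groups, so that the count ran from 0 to 1 when arrays were left out. The median difference of the set, 0.038 in the reported fit, ran from -0.026 (median scaling) to 0.096 (array weights) over the alternatives, with -0.021 without wild-type replicate 1, 0.096 without replicate 3 of both groups and 0 with quantile normalization. Each of these lies within 0.093, the SD of the set level within groups, of the reported value. The sign of the difference was the same in every setting for 15 of the 35 members. The count over all genes was 15 in the reported fit, 8 with the upper 30% of probe sets, 9 with the filter and probe set chosen by mean log2 value, 35 with array weights (1 of the other endothelial genes, Apln, among them), 37 with the tubule covariate, and 1 to 40 when arrays were left out, with 1 without transgenic replicate 1. With the replicate number as a block it was 1, and the endothelial count was 0. Same-numbered arrays did not deviate in the same direction (correlations of -0.02, -0.41 and -0.51). With 3 arrays per group this cannot decide whether same-numbered samples shared a litter or a day.

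Differences turned sign, without passing the threshold, as follows. With quantile normalization Ehd3 was at -0.009, Ets1 at -0.074, Plat at -0.004 and Tek at -0.013. With median scaling Ets1 was at -0.045, Gpihbp1 at -0.016, Myct1 at -0.026, Tal1 at -0.042, Flt1 at -0.020 and Tek at -0.024. With the mean of kept probe sets Clec14a was at -0.006. With array weights Apold1 was at -0.25, Cdh5 at 0.11, Esam at 0.101, Fli1 at 0.069, Plvap at -0.061, Ptprb at 0.105 and Robo4 at 0.135. With the tubule covariate Apold1 was at -0.252, Cdh5 at 0.044, Esam at 0.075, Plvap at -0.018, Ptprb at 0.058 and Robo4 at 0.153. When 1 or 2 arrays were left out, the values ran from -0.57 to 0.49 for Apold1, -0.25 to 0.22 for Cav1, -0.24 to 0.20 for Cdh5, -0.056 to 0.30 for Egfl7, -0.009 to 0.25 for Ehd3, -0.077 to 0.16 for Esam, -0.036 to 0.16 for Ets1, -0.25 to 0.12 for Fli1, -0.058 to 0.12 for Gpihbp1 and -0.40 to 0.19 for Klf4. They ran from -0.12 to 0.31 for Myct1, -0.13 to 0.13 for Nos3, -0.30 to 0.001 for Pecam1, -0.20 to 0.35 for Plvap, -0.20 to 0.18 for Ptprb, -0.25 to 0.21 for Robo4, -0.16 to 0.15 for Sox17, -0.040 to 0.12 for Tal1, -0.080 to 0.34 for Flt1, -0.092 to 0.32 for Tek and -0.068 to 0.36 for Nostrin. The cause was not tested. Signals near the filter lie close to background, so dim members such as Vwf have no usable value, and 3 arrays per group limit the precision.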
